A study of Mus musculus with 21 samples.

Results

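The genes described are 9 genes of innate immune signalling, Tlr2, Clec4e, Gpr84, Tnf, Irf1, Nfkbie, Tnip3, Acod1 and Pstpip2, out of 22180 genes that could be named by 1 symbol. They were chosen because their signals were higher in mouse osteoblasts given hPTH(7-34) than in cells given vehicle. Every difference of these 9 genes that uses the hPTH(7-34) arrays is therefore a description, given without a p. Genes outside the 9 were tested with hPTH(7-34), and the gene lists were chosen with earlier results of these data known. What the choice did not use is how the same genes behaved with the other PTH analogs, and those comparisons were tested. Each gene is read by 1 transcript cluster of the array, the brighter one where a symbol had several, and all 9 were found.

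The cells were osteoblasts, the bone-forming cells, released by collagenase and trypsin from the skull vault (calvaria) of mice of the C57BL/6J strain, 7 to 10 days old, and differentiated at passage 2. After 24 h without serum they were given a peptide or vehicle for 4 h, and 3 independently prepared cultures per treatment were each measured on 1 Affymetrix Mouse Gene 2.0 ST array (21 arrays in all). The peptides were hPTH(7-34) from Prospec, hPTH(1-31) and hPTH(1-34) from Bachem, PTH(1-36) from American Peptide, bPTH(3-34) from Bachem, all at 100 nM, and, at 1000 nM, bPTH(7-34) from Bachem, a bovine peptide amide with D-Trp12 and Tyr34, with Vehicle as the control. All groups share the mouse strain, the cell preparation and serum-free medium with bovine serum albumin. The analogs hPTH(1-31), hPTH(1-34) and PTH(1-36) keep the amino terminus of the hormone and are called intact here, while hPTH(7-34), bPTH(3-34) and bPTH(7-34) lack its first residues. The peptide and its supplier change together in hPTH(7-34) and in PTH(1-36), and their parts cannot be told apart. Each array read a whole culture in which macrophage markers were bright, so more cells of a type and more RNA per cell cannot be told apart.

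Parathyroid hormone acts on osteoblasts through PTH1R, a receptor that couples to cyclic AMP, and the amino-terminal residues of the hormone are what activates that signal, so amino-terminally truncated peptides are known as poor activators or antagonists. Innate immune genes of the kind described here are best known from macrophages, where sensors such as Toll-like receptors switch on NF-kappaB, which induces cytokines together with its own inhibitors. Osteoblasts can also express many of these genes, and tumour necrosis factor is known as a signal that promotes bone resorption.

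The promoter sequences of the genes show where NF-kappaB recognition letters lie. RefSeq promoters (build GRCm38.p6, the 250 bases before the transcription start that the table gives) were held for 8 of the 9 genes, with 2 starts for Irf1. The NF-kappaB consensus, searched on both strands, was present for 4 of these 8 genes, Tlr2, Irf1, Nfkbie and Tnip3, against 3.9% of all 32851 promoters of the same length. Those 4 are printed below because they carry a match, with Acod1 because it is the member with the largest difference between hPTH(7-34) and Vehicle, in the 5′ to 3′ direction of the gene and with the NF-kappaB matches in capitals.
Tlr2, chr3:83841609-83841858, minus strand: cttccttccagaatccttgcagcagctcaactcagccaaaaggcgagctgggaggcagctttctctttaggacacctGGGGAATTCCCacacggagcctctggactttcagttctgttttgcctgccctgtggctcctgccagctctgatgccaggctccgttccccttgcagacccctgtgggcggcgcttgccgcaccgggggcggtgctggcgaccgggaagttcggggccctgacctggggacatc
Irf1, chr11:53769764-53770013, plus strand: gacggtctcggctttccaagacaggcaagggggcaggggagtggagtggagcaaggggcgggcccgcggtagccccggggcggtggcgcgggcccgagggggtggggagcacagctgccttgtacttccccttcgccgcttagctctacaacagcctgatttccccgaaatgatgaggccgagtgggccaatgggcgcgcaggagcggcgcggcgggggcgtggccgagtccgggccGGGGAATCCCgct
Nfkbie, chr17:45555450-45555699, plus strand: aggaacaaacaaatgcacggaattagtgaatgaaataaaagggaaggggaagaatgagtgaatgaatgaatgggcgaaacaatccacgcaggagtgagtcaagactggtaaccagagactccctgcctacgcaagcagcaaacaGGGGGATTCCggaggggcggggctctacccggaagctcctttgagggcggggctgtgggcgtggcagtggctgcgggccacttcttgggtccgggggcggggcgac
Tnip3, chr6:65590148-65590397, plus strand: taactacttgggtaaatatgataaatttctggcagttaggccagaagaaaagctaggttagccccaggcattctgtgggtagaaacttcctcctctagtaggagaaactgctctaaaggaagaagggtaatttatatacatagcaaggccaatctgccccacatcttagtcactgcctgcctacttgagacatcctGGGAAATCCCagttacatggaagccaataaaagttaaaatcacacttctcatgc
Acod1, chr14:103046762-103047011, plus strand: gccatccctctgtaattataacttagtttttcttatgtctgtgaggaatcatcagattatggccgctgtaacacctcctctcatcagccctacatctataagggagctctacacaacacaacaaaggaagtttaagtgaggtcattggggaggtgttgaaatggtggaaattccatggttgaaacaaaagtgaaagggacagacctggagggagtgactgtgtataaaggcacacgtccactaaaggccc

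In Tlr2 a pair of overlapping matches ran from base -173 to base -163 before the start, and in Tnip3 the match lay from -54 to -45. The Nfkbie match covered -106 to -97, and an AP-1 element (TGANTCA, held by 6.75% of all promoters) stood 5′ of it from -156 to -150. In Irf1, the gene for interferon regulatory factor 1, a gamma-activated site (TTCNNNGAA, 7.02% of promoters) lay from -90 to -82 and the NF-kappaB match from -13 to -4. The cyclic AMP response element (TGACGTCA, 1.55%) was found in none of the 8 genes. A match is a string of letters and not a measured binding site, and a window without one says only that these letters are not in it.

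**Figure D1:**
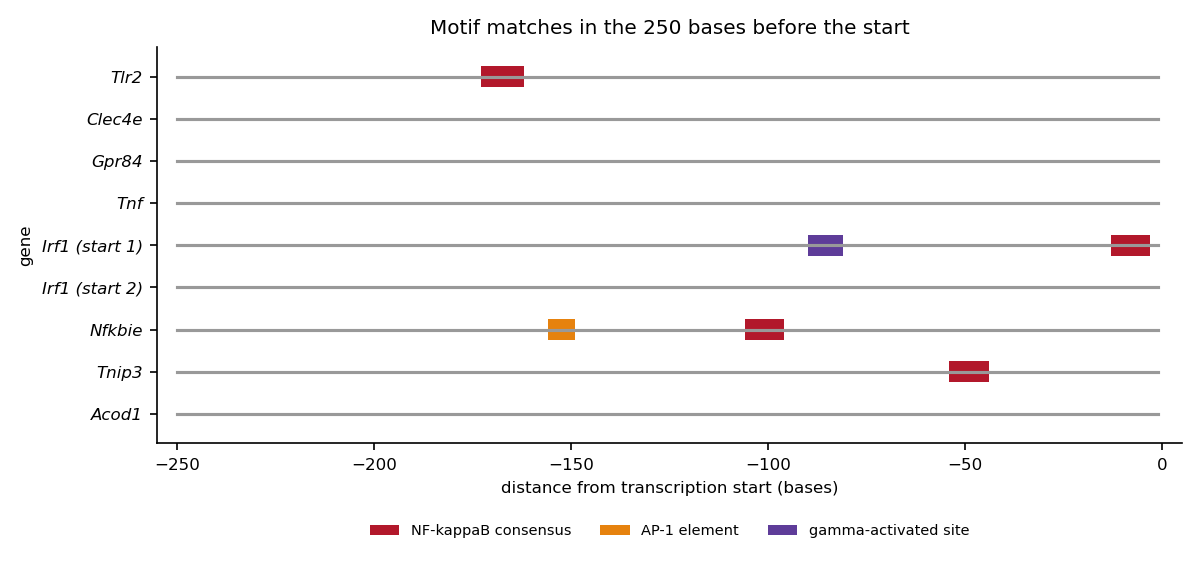
Motif matches on either strand in the 250 bases before the transcription start of 8 genes (x axis, bases from the start; 2 starts for Irf1). NF-kappaB matches (red) lie in Tlr2, Irf1, Nfkbie and Tnip3, between base -173 and base -4.

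The 21 arrays were alike. Array medians lay between 3.49 and 3.61 (log2), arrays of a group correlated at r of 0.990 to 0.993 over all genes, and the table's median signal was 3.55. Macrophage markers were bright everywhere: the mean of 16 such genes was 8.83 to 8.95 on the hPTH(7-34) arrays and 8.72 to 8.86 on the Vehicle arrays, and 15 of the 16 were above the table's median in each group. Osteoblast markers averaged 8.18 to 8.35 with hPTH(7-34) and 8.15 to 8.39 with Vehicle (9 genes), with Col1a1 at 13.2 in each. Osteoclast markers averaged 5.52 to 5.56 with hPTH(7-34) and 5.39 to 5.55 with Vehicle, above the table's median. Dendritic cell (4.16 to 4.35 and 4.15 to 4.29) and endothelial markers (3.81 to 3.99 and 3.87 to 3.96) also averaged above it. Neutrophil markers averaged 2.87 to 3.00 with hPTH(7-34) and 2.87 to 3.06 with Vehicle, below the table's median. B cell (2.57 to 3.02 and 2.65 to 2.99) and mast cell markers (2.25 to 2.56 and 2.28 to 2.41) averaged below it too. So did T and NK cell markers (3.08 to 3.23 and 3.18 to 3.32). In no group were the 9 genes read near the bottom of the scale, since their group means ran from 4.27 for Acod1 with bPTH(3-34) to 7.97 for Tnf with hPTH(1-31).

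Among the receptors, Tlr2 senses bacterial lipoproteins at the cell surface. Its signals were 7.52, 7.56 and 7.92 (log2) with hPTH(7-34), against 6.78, 6.82 and 6.82 with Vehicle. The intact analogs gave 7.27, 7.29 and 7.21 with hPTH(1-31), 7.35, 7.22 and 7.39 with hPTH(1-34), and 7.27, 7.01 and 7.22 with PTH(1-36). The truncated bovine peptides gave 7.04, 6.83 and 6.89 with bPTH(3-34) and 6.77, 7.04 and 6.74 with bPTH(7-34). The 3 hPTH(7-34) arrays thus stood above all 18 others, the 9 intact arrays were above the Vehicle arrays, and PTH(1-36) overlapped both bovine peptides, which overlapped Vehicle or lay a little above it. In the tested contrasts Tlr2 rose by 0.51 ± 0.11 with hPTH(1-34) (log2 difference to Vehicle ± SE, limma adjusted p = 0.00491) and by 0.45 ± 0.11 with hPTH(1-31) (limma adjusted p = 0.0132), and the difference of 0.36 ± 0.11 with PTH(1-36) missed the threshold (limma adjusted p = 0.0569).

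Clec4e encodes Mincle, a C-type lectin receptor for mycobacterial glycolipids and for products of dead cells. It had 7.60, 7.55 and 8.19 with hPTH(7-34), against 6.11, 6.55 and 6.33 with Vehicle. The arrays of hPTH(1-31) had 7.30, 7.29 and 7.67, those of hPTH(1-34) 7.55, 7.78 and 7.79, and those of PTH(1-36) 7.35, 7.11 and 7.31. With bPTH(3-34) the signals were 7.04, 6.45 and 6.60, and with bPTH(7-34) they were 6.73, 6.46 and 6.49. Here hPTH(7-34) and hPTH(1-34) overlapped and shared the top, and all 9 intact arrays were above all bovine and Vehicle arrays. Clec4e rose with hPTH(1-34) (+1.38 ± 0.18, 2.60-fold, limma adjusted p = 2.96e-05), with hPTH(1-31) (+1.09 ± 0.18, limma adjusted p = 0.000371) and with PTH(1-36) (+0.93 ± 0.18, limma adjusted p = 0.00209). The +0.37 with bPTH(3-34) was the largest member difference of a bovine peptide and was not called (limma adjusted p = 0.843, 95% interval -0.01 to 0.74).

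Gpr84, a G protein-coupled receptor for medium-chain fatty acids found on myeloid cells, was the member that the intact analogs raised most. Its signals were 5.82, 5.84 and 6.66 with hPTH(7-34), against 4.67, 4.98 and 4.56 with Vehicle. They were 6.55, 6.66 and 6.30 with hPTH(1-31), 6.66, 7.03 and 6.59 with hPTH(1-34) and 6.43, 6.38 and 5.95 with PTH(1-36). With bPTH(3-34) Gpr84 had 4.79, 4.38 and 4.56, and with bPTH(7-34) it had 4.79, 4.97 and 4.56. Arrays 1 and 2 of hPTH(7-34) were below all 9 intact arrays and array 3 lay among them, while the bovine arrays overlapped Vehicle. The rise was +2.02 ± 0.21 with hPTH(1-34) (4.07-fold, limma adjusted p = 1.74e-06), +1.77 ± 0.21 with hPTH(1-31) (limma adjusted p = 8.78e-06) and +1.52 ± 0.21 with PTH(1-36) (limma adjusted p = 6.64e-05).

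Tnf, the cytokine tumour necrosis factor and the 1 secreted ligand among the 9, had a lower mean with hPTH(7-34) than with each intact analog, as Gpr84 did. It had 7.27, 7.30 and 7.74 with hPTH(7-34), against 6.36, 6.85 and 6.26 with Vehicle. The intact arrays read 7.95, 8.09 and 7.88 (hPTH(1-31)), 7.69, 8.04 and 7.93 (hPTH(1-34)) and 7.56, 7.75 and 7.81 (PTH(1-36)). The bovine arrays read 6.55, 6.34 and 6.32 (bPTH(3-34)) and 6.81, 6.43 and 6.38 (bPTH(7-34)). The 3 hPTH(7-34) arrays were above every Vehicle array and below every hPTH(1-31) array. Tnf rose by 1.48 ± 0.16 with hPTH(1-31) (limma adjusted p = 3.76e-06), by 1.40 ± 0.16 with hPTH(1-34) (limma adjusted p = 7.83e-06) and by 1.22 ± 0.16 with PTH(1-36) (limma adjusted p = 4.91e-05).

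Irf1, a transcription factor induced by interferons and by NF-kappaB, was the member whose pattern departed most from the others. It had 6.55, 6.55 and 6.78 with hPTH(7-34), against 6.08, 6.09 and 6.15 with Vehicle. It had 5.99, 6.02 and 5.76 with hPTH(1-31), 6.03, 6.18 and 5.95 with hPTH(1-34), and 6.14, 5.77 and 5.83 with PTH(1-36). With bPTH(3-34) it had 6.06, 6.09 and 5.95, and with bPTH(7-34) 6.10, 6.11 and 6.16. Only the hPTH(7-34) arrays stood away from the rest, and the intact arrays lay around or under Vehicle. The intact differences to Vehicle were -0.19 ± 0.10 with PTH(1-36), -0.18 ± 0.10 with hPTH(1-31) and -0.05 ± 0.10 with hPTH(1-34), and none was called (limma adjusted p = 0.342, 0.372 and 0.864).

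A pair of members encodes proteins known as NF-kappaB inhibitors, for Tnip3 from human cells. Nfkbie encodes IkappaB-epsilon, which holds NF-kappaB dimers in the cytoplasm, and had 7.02, 6.88 and 7.43 with hPTH(7-34), against 5.89, 6.34 and 6.17 with Vehicle. It had 7.19, 6.85 and 6.89 with hPTH(1-31), 6.87, 7.03 and 6.96 with hPTH(1-34) and 6.65, 6.54 and 6.63 with PTH(1-36). With bPTH(3-34) it had 6.41, 6.35 and 6.25, and with bPTH(7-34) 6.23, 6.22 and 6.20. The hPTH(7-34), hPTH(1-31) and hPTH(1-34) arrays overlapped, PTH(1-36) came below them, and all 9 intact arrays were above Vehicle. Nfkbie rose by 0.84 ± 0.13 with hPTH(1-31) (limma adjusted p = 0.000236), by 0.82 ± 0.13 with hPTH(1-34) (limma adjusted p = 0.000333) and by 0.47 ± 0.13 with PTH(1-36) (limma adjusted p = 0.0337). The PTH(1-36) call was lost without Vehicle array 1 or 3 and without any 1 of the PTH(1-36) arrays (limma adjusted p up to 0.169 over all alternatives).

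Tnip3 encodes ABIN-3, an A20-binding protein that inhibits NF-kappaB activation in human cells. It had 7.26, 7.36 and 7.73 with hPTH(7-34), against 6.13, 6.36 and 6.59 with Vehicle. It had 7.09, 7.31 and 7.17 with hPTH(1-31), 7.41, 7.37 and 7.39 with hPTH(1-34), and 7.08, 7.10 and 7.14 with PTH(1-36). The bovine peptides gave 6.43, 6.28 and 6.19 with bPTH(3-34) and 6.57, 6.38 and 6.08 with bPTH(7-34). The groups fell into 2 sets with no array between them, hPTH(7-34) and the intact analogs from 7.08 up and the bovine peptides and Vehicle from 6.59 down. Tnip3 rose by 1.03 ± 0.14 with hPTH(1-34) (2.04-fold, limma adjusted p = 4.23e-05), by 0.83 ± 0.14 with hPTH(1-31) (limma adjusted p = 0.000423) and by 0.75 ± 0.14 with PTH(1-36) (limma adjusted p = 0.00139).

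Of the effectors, Acod1 makes itaconate from cis-aconitate, a step best known in activated macrophages. It had 5.90, 6.08 and 7.22 with hPTH(7-34), against 4.46, 4.82 and 3.92 with Vehicle. It had 5.33, 5.23 and 5.05 with hPTH(1-31), 5.62, 5.54 and 5.60 with hPTH(1-34), and 5.09, 5.06 and 4.76 with PTH(1-36). With bPTH(3-34) it had 4.66, 4.19 and 3.97, and with bPTH(7-34) 4.46, 4.72 and 4.60. All 3 hPTH(7-34) arrays exceeded all 18 others, and array 3 was 1.23 above the mean of arrays 1 and 2, a gap exceeded by 0.018% of all genes. Among the tested contrasts Acod1 rose with hPTH(1-34) (+1.19 ± 0.27, 2.28-fold, limma adjusted p = 0.0074), while +0.80 ± 0.27 with hPTH(1-31) and +0.57 ± 0.27 with PTH(1-36) were not called (limma adjusted p = 0.078 and 0.259).

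Pstpip2, an F-BAR adaptor protein whose loss in mice causes an inflammatory bone disease, moved least. It had 6.93, 6.93 and 7.04 with hPTH(7-34), against 6.54, 6.54 and 6.32 with Vehicle. It had 6.49, 6.42 and 6.62 with hPTH(1-31), 6.78, 6.59 and 6.52 with hPTH(1-34), and 6.31, 6.19 and 6.43 with PTH(1-36). The bovine peptides gave 6.53, 6.54 and 6.54 with bPTH(3-34) and 6.39, 6.37 and 6.41 with bPTH(7-34). The 3 hPTH(7-34) arrays were above all others, and the rest lay around Vehicle. Differences to Vehicle of +0.16 ± 0.09 with hPTH(1-34), +0.04 ± 0.09 with hPTH(1-31) and -0.16 ± 0.09 with PTH(1-36) were not called (limma adjusted p = 0.35, 0.88 and 0.387). A second cluster with this symbol averaged 2.06 with hPTH(7-34) and 2.15 with Vehicle, below the table's median, and was not used.

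**Figure D2:**
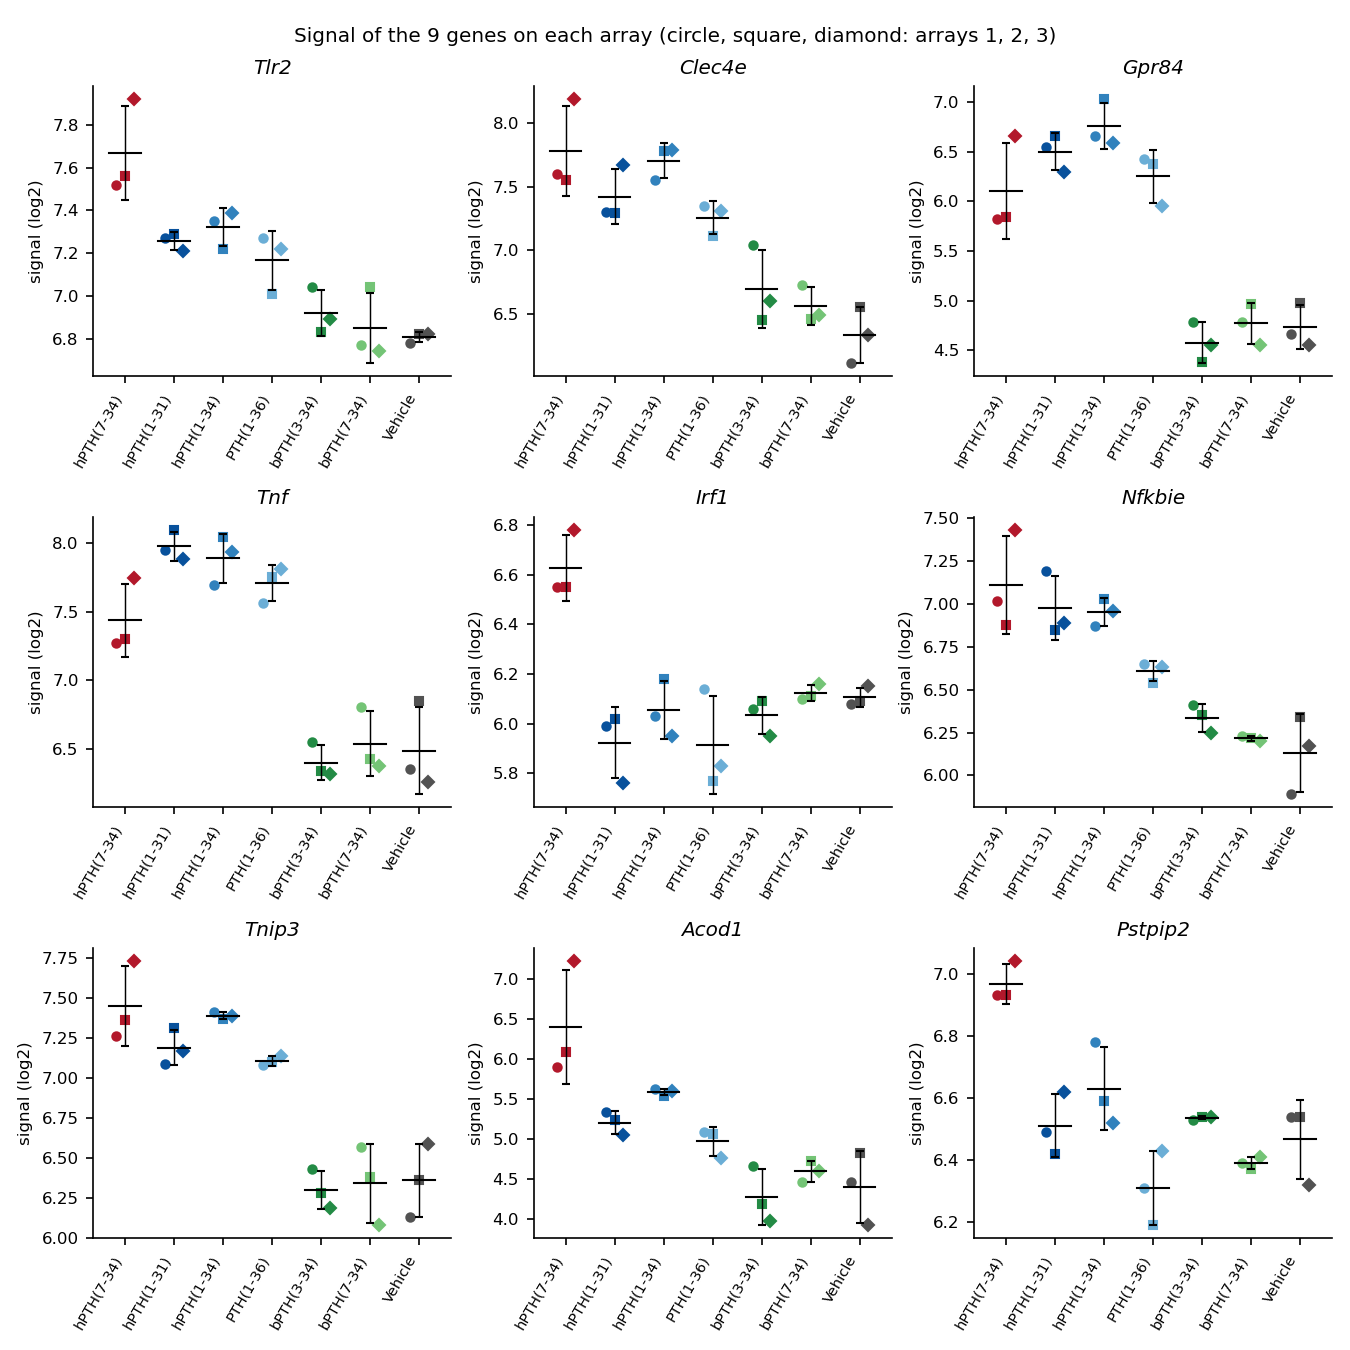
Signal (y axis, log2) of the 9 genes on each of the 21 arrays, by treatment (x axis). Symbols are arrays 1, 2 and 3, lines are means and bars are SD (n = 3). Irf1 and Pstpip2 stand high only on the hPTH(7-34) arrays, while Gpr84 and Tnf are as high or higher with the intact analogs, and the bovine peptides lie near Vehicle for all 9.

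Set against Vehicle as a group, the 9 genes had a median difference of +0.98 with hPTH(7-34), from +0.50 (Pstpip2) to +2.00 (Acod1), beside a median of 0 over all genes. All 9 had their 3 arrays above the 3 Vehicle arrays, as did 6.68% of all genes, and 8 of them, all but Irf1, were among the 16 genes (0.0721%) past an adjusted p of 0.05 in that contrast. Those counts follow from how the genes were chosen. Macrophage markers were on average 0.14, 0.17 and 0.05 above their Vehicle mean on the hPTH(7-34) arrays 1, 2 and 3, the Vehicle arrays themselves ran from -0.06 to 0.08, and none of the 16 was called. Their part in the result was not tested.

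The intact analogs raised most of the same genes. With hPTH(1-34), 7 of the 9 rose and none fell, beside 8.64% of all genes called in either direction and 3.9% called higher. With hPTH(1-31), 6 rose and none fell (8.7% of all genes called, 4.38% higher), and with PTH(1-36), 5 rose and none fell (7.23% called, 3.68% higher). The members' median differences were +1.03, +0.83 and +0.57 for hPTH(1-34), hPTH(1-31) and PTH(1-36), against medians of -0.01, -0.02 and -0.02 over all genes. Clec4e, Gpr84, Tnf, Nfkbie and Tnip3 rose with all 3 intact analogs, Tlr2 with hPTH(1-34) and hPTH(1-31), Acod1 with hPTH(1-34) alone among them, and Irf1 and Pstpip2 with none. These contrasts share the 3 Vehicle arrays with the one the genes were chosen on.

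The bovine truncated peptides did not give a call. With bPTH(3-34) at 100 nM none of the 9 was called and their median difference was -0.06 (range -0.16 to 0.37), and with bPTH(7-34) at 1000 nM none was called and the median was +0.04 (range -0.08 to 0.23). No gene of the 22180 was called in either contrast (0%). An unadjusted limma p under 0.05 was reached by 1313 (5.92%) and 1151 genes (5.19%), none of them a member. Intervals show what could have been missed: the 95% interval of a member's difference reached at most 0.76 (Acod1 with bPTH(7-34)) and 0.74 (Clec4e with bPTH(3-34)). The hPTH(7-34) and bPTH(7-34) doses differ, so their values stand side by side and were not contrasted.

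**Figure D3:**
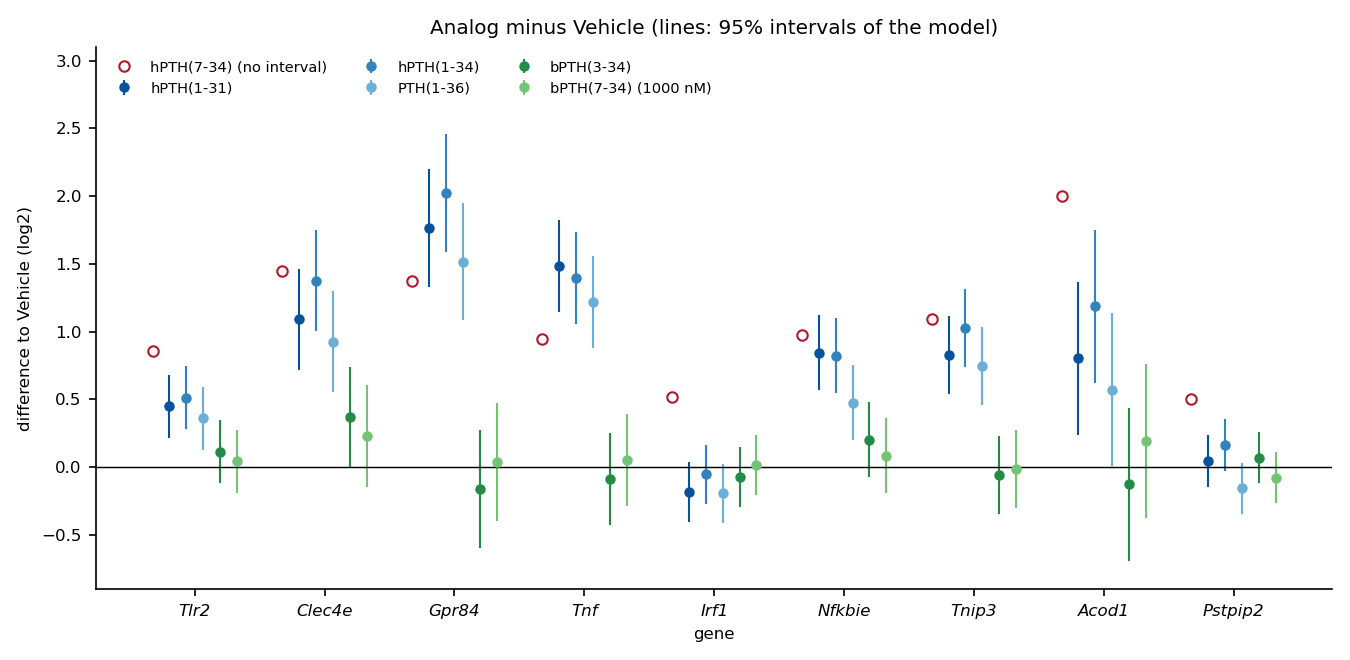
Difference to Vehicle (y axis, log2) of each gene (x axis) for the 6 peptides. Lines are 95% intervals of the limma model, and hPTH(7-34), on which the genes were chosen, has open points with no interval. Intervals of the intact analogs lie above 0 for Clec4e, Gpr84, Tnf, Nfkbie, Tnip3, Tlr2 and Acod1, though not every Tlr2 and Acod1 difference was called. Those of Irf1 and Pstpip2 hold 0.

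In the comparison of the intact analogs with bPTH(3-34) at the same dose, the means use neither the hPTH(7-34) nor the Vehicle arrays. The spread used in its tests still came from all 7 groups. With hPTH(1-34), 7 of the 9 were higher than with bPTH(3-34) (9.32% of all genes called, 3.94% higher), with hPTH(1-31) 6 were (9.14% called, 4.23% higher) and with PTH(1-36) 3 were (7.21% called, 3.35% higher), and none was lower. Gpr84 differed most: its means were 6.76 ± 0.24 with hPTH(1-34) and 4.58 ± 0.21 with bPTH(3-34) (SD, n = 3 each), a difference of 2.18 (limma adjusted p = 6.75e-07). Tnf averaged 7.97 ± 0.11 with hPTH(1-31) and 6.40 ± 0.13 with bPTH(3-34) (SD, n = 3 each), a difference of 1.57 (limma adjusted p = 1.86e-06). Gpr84, Tnf and Tnip3 were the 3 that also passed with PTH(1-36), at +1.68, +1.30 and +0.81 (limma adjusted p = 2.12e-05, 2.28e-05 and 0.000669). Irf1 differed by +0.02, -0.11 and -0.12 and Pstpip2 by +0.09, -0.03 and -0.23 for hPTH(1-34), hPTH(1-31) and PTH(1-36), and neither was called. The Tlr2 call with hPTH(1-34) (+0.40, limma adjusted p = 0.0271) was lost without hPTH(1-34) array 1 or 3 or bPTH(3-34) array 2 or 3 (up to 0.105). That of Clec4e with hPTH(1-31) (+0.72, limma adjusted p = 0.0126) was lost without hPTH(1-31) array 3 or bPTH(3-34) array 2 or 3 (up to 0.075). Both calls were also lost in fits of only the arrays of the groups compared. The Acod1 call with hPTH(1-31) (+0.93, limma adjusted p = 0.0355) was lost without any 1 of the hPTH(1-31) arrays and without bPTH(3-34) array 2 or 3 (up to 0.149).

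Between the intact analogs no member was called in the 3 pairwise contrasts, in which 0%, 0.00451% and 0.00451% of all genes were. PTH(1-36) had a lower mean than hPTH(1-34) for all 9 genes, with a median of -0.32 against 0 over all genes. For 6 of them, Clec4e, Gpr84, Nfkbie, Tnip3, Acod1 and Pstpip2, all 3 PTH(1-36) arrays were below all 3 hPTH(1-34) arrays, which held for 4.8% of all genes. The widest gap was that of Acod1 (4.97 ± 0.18 with PTH(1-36) and 5.59 ± 0.04 with hPTH(1-34), SD, n = 3 each, difference -0.62, 95% interval -1.18 to -0.05, limma adjusted p = 0.765), and the smallest adjusted p was that of Pstpip2 (-0.32, 95% interval -0.51 to -0.13, limma adjusted p = 0.574). Between hPTH(1-31) and hPTH(1-34), which differ by the last residues, the median difference was -0.13 and every 95% interval held 0, the widest being that of Acod1 from -0.95 to 0.18. PTH(1-36) minus hPTH(1-31) had a median of -0.20 and ran from -0.37 (Nfkbie, 95% interval -0.65 to -0.09, limma adjusted p = 0.843) to -0.01 (Irf1).

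Set beside the intact analogs, hPTH(7-34) gave an uneven picture that differed from gene to gene. Acod1, Irf1, Pstpip2 and Tlr2 were higher than with hPTH(1-34), by 0.81, 0.57, 0.34 and 0.35. For each of these 4 all hPTH(7-34) arrays were above all hPTH(1-34) arrays, as they were for 16.6% of all genes. They were also above all hPTH(1-31) arrays (15.1% of all genes) and all PTH(1-36) arrays (13.4%). The 9 genes were chosen for high signals on these hPTH(7-34) arrays. Clec4e, Nfkbie and Tnip3 differed from hPTH(1-34) by +0.07, +0.16 and +0.06, and Gpr84 and Tnf were lower, by -0.65 and -0.45. The members' median difference was +0.16 to hPTH(1-34), +0.36 to hPTH(1-31) and +0.50 to PTH(1-36), and 0 over all genes in each. To bPTH(3-34) it was +1.03, from +0.43 (Pstpip2) to +2.13 (Acod1), with all 9 above, as were 5.37% of all genes.

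The third hPTH(7-34) array stood higher than the other two for all 9 genes, by 0.11 (Pstpip2) to 1.23 (Acod1) with a median of 0.46, against a median of -0.02 over all genes on that array. The inflammatory chemokine genes Ccl2 and Cxcl10 were also higher there, by 0.86 and 0.92, while macrophage markers were lower by a median of 0.09. Without array 3, all 9 genes remained above Vehicle by 0.44 (Irf1) to 1.59 (Acod1). The difference to hPTH(1-34) then turned to -0.13 for Clec4e, -0.08 for Tnip3 and -0.003 for Nfkbie, fell to 0.40 for Acod1 and 0.22 for Tlr2, and was -0.93 for Gpr84 and -0.60 for Tnf, and their median was -0.003. To hPTH(1-31) that median was 0.16 in place of 0.36, and Nfkbie turned to -0.03. Irf1 and Pstpip2 were almost as far above hPTH(1-34) without it, by 0.50 and 0.30.

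**Figure D4:**
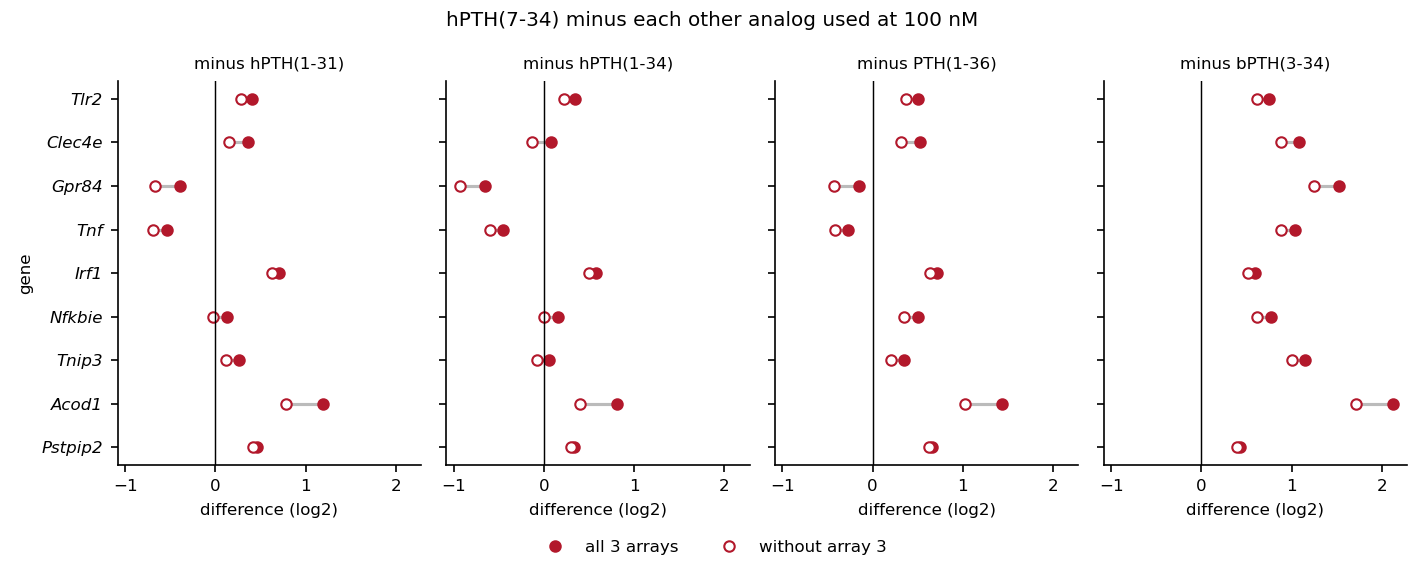
hPTH(7-34) minus each other analog used at 100 nM (x axes, log2) for the 9 genes (y axis), with all 3 hPTH(7-34) arrays (filled) and without array 3 (open). Acod1, Irf1, Pstpip2 and Tlr2 stay to the right of 0 in every panel, Gpr84 and Tnf lie to its left against all 3 intact analogs, and against bPTH(3-34) all 9 are to the right.

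Across the 21 arrays the members split in their likeness to one another. The correlation of a gene with the mean of the other 8 was 0.96 for Tnip3, 0.95 for Clec4e and Nfkbie, 0.92 for Tlr2, 0.88 for Acod1, 0.87 for Gpr84 and 0.83 for Tnf, but 0.52 for Pstpip2 and 0.30 for Irf1. Gpr84 and Tnf were the closest pair (r = 0.97), and Irf1 had r of 0.04 with Gpr84 and -0.08 with Tnf but 0.72 with Pstpip2 and 0.62 with Acod1. These describe 21 arrays that share treatments, and they hold the differences between groups.

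The candidates for likeness were 383 genes whose group means spanned at least 1 log2 unit. Members, predicted genes, clones, small RNAs and olfactory or vomeronasal receptor genes were left out of these. The 10 most like the members' mean profile were Ccl2 (r = 0.90), Cxcl10 (0.86), Ccl12 (0.81), Ch25h and Cxcl5 (0.78 each), Sod2 (0.77), Ifi205 (0.74), Gbp5 (0.72), Bcl3 and Pim1 (0.71 each). Ccl2, the monocyte chemoattractant, had 7.53, 7.57 and 8.41 with hPTH(7-34), against 6.62, 6.70 and 6.72 with Vehicle, and its group means with the intact analogs were 7.73 to 7.83. Cxcl10, an interferon-induced chemokine for T cells, had 7.33, 7.25 and 8.21 with hPTH(7-34), against 5.99, 6.18 and 5.82 with Vehicle, and means of 6.57 to 6.68 with the intact analogs. The hPTH(7-34) arrays of Ccl2 thus lay on both sides of the intact means, and those of Cxcl10 above them.

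The genes of the wider pathways around the members are read against the 0.0721% of all genes called with hPTH(7-34), so a list of this size with no call is near that background. Of 29 cytokine and chemokine genes measured, 2 rose, Cxcl10 (+1.60 ± 0.24, 3.03-fold, limma adjusted p = 0.00759) and Ccl2 (+1.16 ± 0.19, 2.23-fold, limma adjusted p = 0.0155), and none fell, with a list median of +0.09. Ccl12, a chemokine gene that the list did not hold, was called too (+1.02 ± 0.15, limma adjusted p = 0.00759). None passed among 17 genes of NF-kappaB and its regulators (median +0.26), 23 of Toll-like receptor signalling (+0.13), 14 of C-type lectin signalling (+0.22), 17 of tumour necrosis factor signalling (+0.17), 32 inducible effectors (+0.20), 17 interferon regulatory factors and STATs (+0.12), 26 interferon-stimulated genes (+0.28), 9 PSTPIP and inflammasome partners (+0.09) and 16 of itaconate and the tricarboxylic acid cycle (+0.03), beside a median of 0 over all genes. The 2 brightest genes of each list without a call ran from -0.053 (Tnfrsf1a, a receptor of tumour necrosis factor, limma adjusted p = 0.935) to +0.55 (Nfkbia, the inhibitor IkappaB-alpha, limma adjusted p = 0.177). Clec4d, which pairs with Mincle, was at +0.44 (limma adjusted p = 0.309), and Fcer1g, the signalling chain of Mincle, at +0.13 (limma adjusted p = 0.844). Neither Cxcl10 nor Ccl2 was called in a fit of the hPTH(7-34) and Vehicle arrays alone. Without hPTH(7-34) array 3 both kept a call (limma adjusted p = 0.0427 each). No gene of these lists was called without Vehicle array 3.

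The intact analogs called 8.64% (hPTH(1-34)), 8.7% (hPTH(1-31)) and 7.23% (PTH(1-36)) of all genes, against which the counts in these lists are read, and the difference between analogs was not tested per list. Of the 17 NF-kappaB genes, 5 rose with hPTH(1-34), the coactivator Bcl3 (+1.68, limma adjusted p = 2.81e-08), Nfkbia (+0.72, 0.000539), Nfkbiz (+0.47, 0.0196), Tnfaip3, which encodes A20 (+0.58, 0.0245), and Zc3h12a (+0.58, 0.0265), 4 rose and 1 fell with hPTH(1-31), and 2 rose with PTH(1-36). Of the 29 cytokine and chemokine genes, 5 rose with each intact analog, among them Il6 at +2.37 with hPTH(1-34) (limma adjusted p = 2.15e-06). Csf1, the macrophage colony-stimulating factor, fell with hPTH(1-31) and PTH(1-36) (-0.30 and -0.33, limma adjusted p = 0.0316 and 0.0201). Cxcl10 was not called (+0.58, +0.66 and +0.69 for hPTH(1-34), hPTH(1-31) and PTH(1-36), limma adjusted p = 0.179, 0.11 and 0.103). Of 26 interferon-stimulated genes, Ifit1 rose with all 3 and Ifih1 fell with hPTH(1-34) and hPTH(1-31), and the list medians were -0.05, -0.05 and -0.02. Nfkbiz, Tnfaip3, Zc3h12a, Il6, Csf1, Ifit1 and Ifih1 were chosen after their values were seen. With hPTH(7-34) the mean of the 26 interferon-stimulated genes was 0.24, 0.31 and 0.28 above its Vehicle mean on the 3 arrays. On the Vehicle arrays it stood at -0.04, 0.22 and -0.19 from that mean.

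Early response genes of cyclic AMP, the second messenger of PTH1R, rose with the intact analogs. Of 17 measured, 15, 16 and 15 rose with hPTH(1-34), hPTH(1-31) and PTH(1-36), with medians of +1.07, +1.02 and +0.96. Of all genes, 3.9%, 4.38% and 3.68% were called higher in these contrasts with Vehicle. The list was chosen with earlier results of these data known, so its high counts are no independent test. With hPTH(7-34) none was called and the median was +0.08, and with bPTH(3-34) and bPTH(7-34) none was called (+0.05 and +0.02). Genes called higher with hPTH(7-34) than with hPTH(1-34) were ranked without predicted genes, clones and the other kinds left out above. The 5 with the highest differences were outside the members, Dusp27, Lgr5, Bmp4, Adm and Bmp2, at 1.78 to 2.13 (limma adjusted p up to 5.95e-07). Bmp4, a bone morphogenetic protein, averaged 9.26 with hPTH(7-34) and 7.24 with hPTH(1-34). None of these 5 was among the 16 genes called with hPTH(7-34) against Vehicle, so a rise over Vehicle is not shown for them. Against bPTH(3-34), where 11 genes (0.0496%) were called higher, the 5 highest, with the same kinds left out, were Acod1, Gpr84, Cxcl10, Nlrp1c-ps and Tnip3, of which 3 are members. The members' place there follows from their choice on the hPTH(7-34) arrays.

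**Figure D5:**
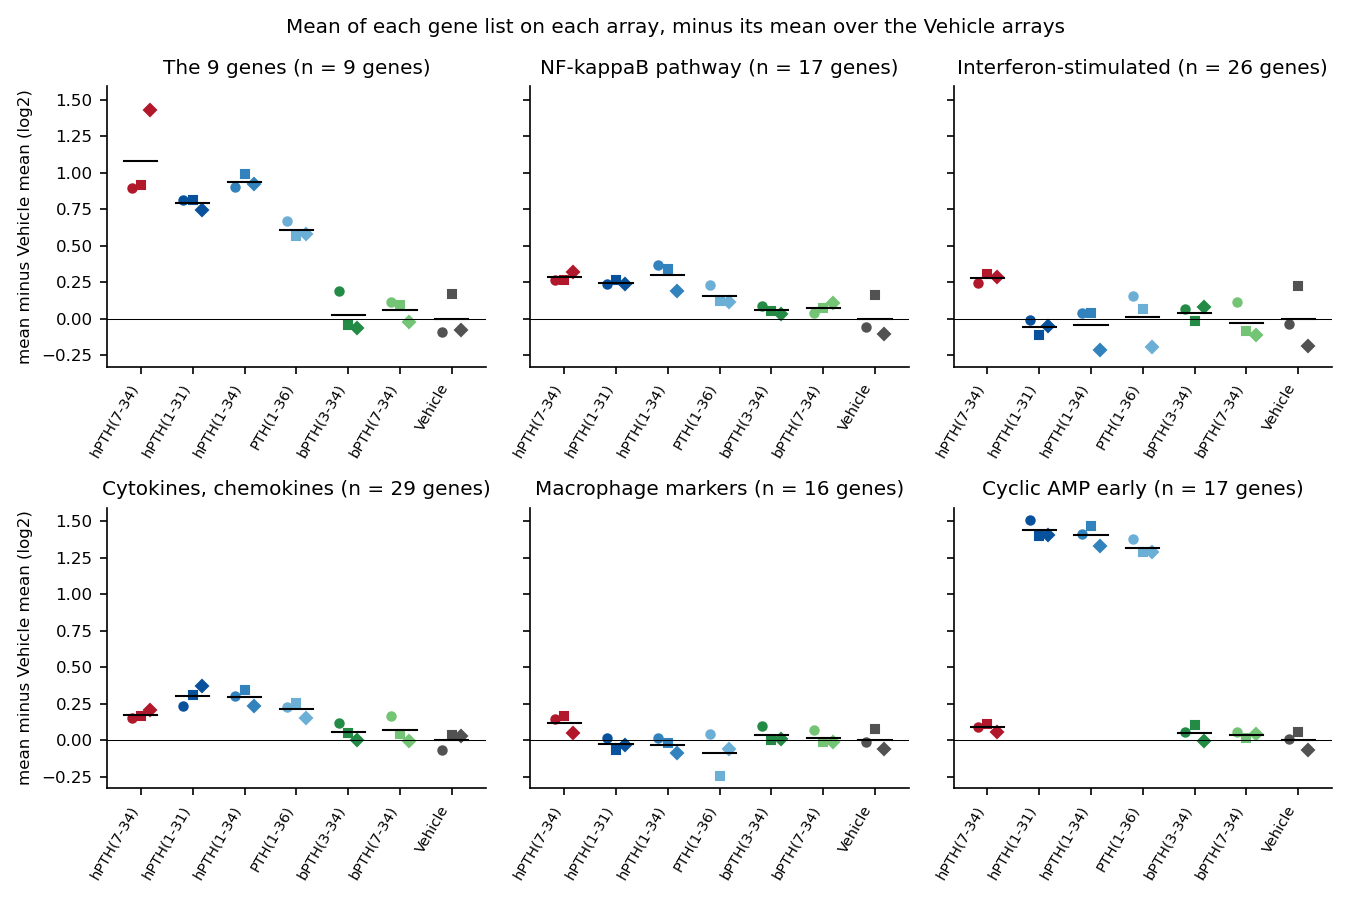
Mean of each list on each array minus its mean over the Vehicle arrays (y axes, log2), by treatment (x axes), with lines at group means and symbols for arrays 1, 2 and 3. The 9 genes are up with hPTH(7-34) and the intact analogs, whereas the cyclic AMP genes are up with the intact analogs and at 0.06 to 0.11 with hPTH(7-34).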

How the data were processed

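Total RNA (100 ng) was labelled and hybridised to 1 array per culture. The deposited table holds 1 value per transcript cluster and array. RMA and Affymetrix Expression Console appear in the submitters' processing notes, with no version, settings or base of the logarithm given in the sources used here. The authors' values, from 0.25 to 13.6, were read as log2 from that method and range, and every fold rests on that reading. An array has no read depth, so precision rests on 3 arrays per group. No array was left out, and no dose but that of bPTH(7-34) differed.

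Of 41345 clusters, 23521 have 1 symbol in the platform annotation, 1814 several and 16010 are not listed. The cluster with the highest mean stood for each of 22180 genes (1082 had several). All 21 arrays entered 1 limma 3.58.1 model (R 4.3.3, lmFit and eBayes) of 7 groups without a block. Two-sided p-values of each contrast were adjusted (Benjamini-Hochberg, 22180 genes) and called under 0.05. In a test on simulated data of hPTH(1-34) against Vehicle over 22180 genes, 43.6% of 1.5-fold, 82.7% of 2-fold and 99.7% of 4-fold changes were recovered, with 5.4% false calls. These rates were not obtained for bPTH(3-34), bPTH(7-34) or hPTH(7-34), where few or no genes were called, and do not carry over to them. Contrasts of hPTH(7-34) were described for the members without a p. Members, gene lists, tests and alternatives were chosen with earlier results of these data known. Genes were named by rule: the 9 members, up to 4 genes per list called with hPTH(7-34), by adjusted p (else the 2 brightest), the 10 most alike and the 5 genes called highest with hPTH(7-34) over hPTH(1-34) and over bPTH(3-34). The 10 and the 5 were taken without predicted genes, clones, small RNAs and olfactory or vomeronasal receptor genes. List genes named for the intact analogs alone were chosen after their values were seen. The replicate number was tried as a block. Promoters are RefSeq's (GRCm38.p6). Figures were drawn with matplotlib 3.10.9.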

Additional observations from a re-analysis of the deposited data

How the results depend on the processing

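Of 1485 recomputed values of the 9 genes in the 11 tested contrasts, 1416 kept direction and side of the threshold, 28 lost a call, 11 gained one and 30 changed sign, none of them called. Nothing in the labels pairs cultures of 1 number: deviations of same-numbered arrays correlated at -0.08 to 0.16 (median 0.03, 1 of 63 pairs over 0.1), though 14 of 21 arrays correlated best with their own number. With the replicate block, 1 call of a member was lost, Acod1 in hPTH(1-31) against bPTH(3-34), which left 5 called, and no other changed. The count of members called was 7 to 7 (hPTH(1-34)), 6 to 7 (hPTH(1-31)) and 4 to 6 (PTH(1-36)) against Vehicle, and 6 to 7, 4 to 7 and 3 to 4 against bPTH(3-34). Sign changes with array medians subtracted or clusters averaged were Irf1 in hPTH(1-34) against bPTH(3-34) (-0.04) and Pstpip2 in hPTH(1-31) against Vehicle (-0.012). With 1 array left out, these ranges held 0. In bPTH(7-34) against Vehicle they were -0.085 to 0.23 (Tnf), -0.038 to 0.19 (Nfkbie), -0.062 to 0.16 (Gpr84), -0.13 to 0.12 (Tnip3), -0.047 to 0.40 (Acod1), -0.052 to 0.098 (Tlr2), -0.0017 to 0.038 (Irf1). In bPTH(3-34) against Vehicle they were -0.20 to 0.093 (Tnf), -0.37 to 0.083 (Acod1), -0.17 to 0.055 (Tnip3), -0.0033 to 0.11 (Pstpip2). In hPTH(1-31) against Vehicle they were -0.03 to 0.088 (Pstpip2). In hPTH(1-31) against hPTH(1-34) they were -0.083 to 0.087 (Nfkbie), -0.012 to 0.16 (Tnf). In PTH(1-36) against hPTH(1-31) they were -0.12 to 0.062 (Irf1). In hPTH(1-31) against bPTH(3-34) they were -0.082 to 0.018 (Pstpip2). In hPTH(1-34) against bPTH(3-34) they were -0.043 to 0.072 (Irf1). The members' median of hPTH(7-34) minus hPTH(1-34) ran from -0.0033 to 0.27 with 1 array left out, and minus hPTH(1-31) from 0.16 to 0.46. In fits of only the arrays of both groups, pathway list genes called against Vehicle were 28, 31, 20 and 0 for hPTH(1-34), hPTH(1-31), PTH(1-36) and hPTH(7-34), against 48, 48, 36 and 2 with all arrays. For hPTH(7-34) they were 10 with trend and robust variance, 4 with array medians subtracted and 0 to 4 with 1 array left out. In those fits of both groups alone, genes called against Vehicle were 936, 928, 606 and 0 (of 1917, 1930, 1603 and 16 with all arrays, for hPTH(1-34), hPTH(1-31), PTH(1-36) and hPTH(7-34)), and against bPTH(3-34) 1217, 1122, 712 and 0 (of 2068, 2027, 1599 and 11). Between hPTH(7-34) and hPTH(1-34), hPTH(1-31) and PTH(1-36) they were 1425, 1270 and 783 (of 2409, 2315 and 1883). Trend and robust variance called 34 genes for hPTH(7-34) against Vehicle, 18 against bPTH(3-34), 3 for PTH(1-36) against hPTH(1-34) and 1 for bPTH(7-34) against Vehicle. Adjusting over all tested contrasts together called 52 and 54 genes for bPTH(3-34) and bPTH(7-34) against Vehicle, no member among them, and 32, 73 and 47 between the intact analogs. Adjusting over all clusters called 5 genes for hPTH(7-34) against bPTH(3-34). Leaving out Vehicle array 3 left 6 genes for hPTH(7-34) against Vehicle, leaving out bPTH(3-34) array 2 or 3 or hPTH(7-34) array 3 left 2 to 4 against bPTH(3-34), and leaving out hPTH(7-34) array 2 left 1227 against PTH(1-36). Under the remaining alternatives, PTH(1-36) against hPTH(1-34) or hPTH(1-31) had 0 to 3 genes called, with 1 each in the fit as reported. The cause was not tested.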
